A study of Homo sapiens with 8 samples.

Results

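Nuclear pore complex genes were followed in the established line CCRF-CEM, which derives from a human T-cell acute lymphoblastic leukaemia. The list held 31 genes for nucleoporins and their close partners, and each was represented by the probe set that the array's annotation gives its symbol. Of these, 29 were measured among 21448 probe sets, each by 1 probe set. NUP62 and NUP98 were not matched and are not analysed here. All cells were held for 1 h in a gel of bovine type I collagen at 1.7 mg/mL. The 4 untreated samples had nothing before the gel, and the 4 OICR-9429 samples had 1 h of pretreatment with 1 µM of that compound, which binds WDR5, a subunit of histone H3 lysine 4 methyltransferase complexes. No solvent is named for the untreated cells. The titles number the samples 1 to 4 in each group as biological replicates, without saying whether they came from separate cultures, so a p-value here reflects only how these samples vary, which may be technical. All came from 1 cell line.

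The nuclear pore complex is the channel through which proteins and RNA cross the nuclear envelope. Its scaffold is made of Y-shaped complexes on the outer rings and of an inner ring, and membrane proteins anchor it. Nucleoporins rich in phenylalanine-glycine repeats fill the central channel and bind the transport receptors. Filaments on the cytoplasmic side and a basket on the nuclear side form the periphery, where messenger RNA leaves and cargo is released. In growing cells such as leukaemia lines the pore is built anew as nuclei expand. Some nucleoporins, among them NUP98 and NUP214, are also known as fusion partners in leukaemia.

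The measured genes covered 9 of 9 of the Y complex (NUP107, NUP160, NUP133, NUP85, NUP43, NUP37, SEH1L, SEC13 and AHCTF1), 5 of 5 of the inner ring (NUP93, NUP205, NUP188, NUP155 and NUP35) and 4 of 4 of the membrane ring with its partner ALADIN (NDC1, POM121, NUP210 and AAAS). They covered 2 of 4 of the central channel (NUP58 and NUP54), 6 of 6 of the cytoplasmic side (RANBP2, NUP214, NUP88, NUP42, GLE1 and RAE1) and 3 of 3 of the nuclear basket (TPR, NUP153 and NUP50). RANBP2 and POM121 have near-identical copies. The array has probe sets for 6 of the RGPD copies of RANBP2 and for POM121C, so signal assigned to these genes may be shared and their values are uncertain.

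Promoters, with RefSeq sequence of build GRCh38.p14, were found for 26 of the 29 genes, and the 250 bases before the start were searched for motifs on both strands. The ETS motif CCGGAAG was in 12 of 26 (46.2%), against 11.9% of 14250 promoters of genes on the array. The NRF1 core was in 3 (11.5%, against 7.9%), the CREB motif TGACGTCA in 3 (11.5%, against 2.34%), the E-box CACGTG in 2 (7.69%, against 7.7%) and the E2F motif TTTNGCGC in 1 (3.85%, against 1.99%). The CCAAT box (letters CCAAT) was in 9 (34.6%, against 34.6%). The TATA box TATAAA (8.99% of all), the YY1 motif (0.288%) and the ZNF143 motif (0.379%) were in 0 of these windows. A match describes letters in a window and is not a bound site. The sequences below show a Y complex promoter with matches to 4 motifs, a central channel promoter with 2 ETS matches, the promoter of the gene that differed most between samples (TPR), and AAAS, which moved the opposite way. Each runs 5′ to 3′ along the gene's strand and ends 1 base before the start, with motif matches in capitals. In NUP107 the E2F match overlaps an NRF1 match.
NUP107 (chr12:68686728-68686977, plus strand): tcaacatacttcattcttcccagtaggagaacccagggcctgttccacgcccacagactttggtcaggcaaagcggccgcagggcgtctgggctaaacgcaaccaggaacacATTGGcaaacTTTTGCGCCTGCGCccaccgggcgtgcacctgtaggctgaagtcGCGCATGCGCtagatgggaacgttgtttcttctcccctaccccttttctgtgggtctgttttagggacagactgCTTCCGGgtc
NUP54 (chr4:76148398-76148647, minus strand): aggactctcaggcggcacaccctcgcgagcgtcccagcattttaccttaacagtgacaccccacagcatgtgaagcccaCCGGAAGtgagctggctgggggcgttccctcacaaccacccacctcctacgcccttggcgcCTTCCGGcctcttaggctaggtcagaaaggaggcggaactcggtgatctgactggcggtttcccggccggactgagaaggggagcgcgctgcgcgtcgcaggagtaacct
TPR (chr1:186375254-186375503, minus strand): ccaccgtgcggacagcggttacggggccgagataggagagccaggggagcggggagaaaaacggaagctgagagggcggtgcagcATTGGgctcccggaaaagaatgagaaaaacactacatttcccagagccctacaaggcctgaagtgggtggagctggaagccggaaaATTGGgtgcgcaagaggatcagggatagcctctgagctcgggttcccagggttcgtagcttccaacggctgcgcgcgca
AAAS (chr12:53321611-53321860, minus strand): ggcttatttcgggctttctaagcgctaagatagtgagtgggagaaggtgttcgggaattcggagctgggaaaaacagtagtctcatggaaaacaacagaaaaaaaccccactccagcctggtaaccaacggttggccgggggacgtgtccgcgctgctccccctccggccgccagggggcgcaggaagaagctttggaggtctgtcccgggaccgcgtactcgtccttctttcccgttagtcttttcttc
Of the printed genes, NUP107 and TPR were lower at replicate number 4, and NUP54 and AAAS were higher there, as described after the treatment comparison. The call of NUP54 did not hold when any array was left out. Whether motifs go with these differences was not tested.

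Levels are log2 values of probe sets, so a difference of 1 is 2-fold, and levels of different genes are not compared. Array medians ran from 6.38 to 6.46. Both arrays of number 4 stood apart: their upper quartiles were 8.08 and 8.12, against 8.29 to 8.40 on the other 6 arrays. Their lower quartiles were 4.69 and 4.68, against 4.52 to 4.66. Of 12 measured T-lineage markers 12 had a mean level above the median level of all probe sets, with array means of 9.29 to 9.78. CD2 did so only narrowly, with a mean level of 6.50 against a median near 6.45, and stood at 5.96 to 7.16 on single arrays. CD3E, a T-cell receptor subunit, stood at 11.61 to 11.97. Of 8 myeloid markers 2 were above that median, and of 5 B-cell markers 3 were, led by CD79A at a mean level of 9.42. Also above it were 3 of 6 fibroblast and epithelial markers, 1 of 4 NK markers and 1 of 4 erythroid markers. Most nucleoporins were bright: 26 of 29 lay in the top of 4 equal bands of mean level (8.26 to 13.25, called the top band here), and NUP133, NUP205 and RANBP2 lay between that and the median.

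**Figure D1:**
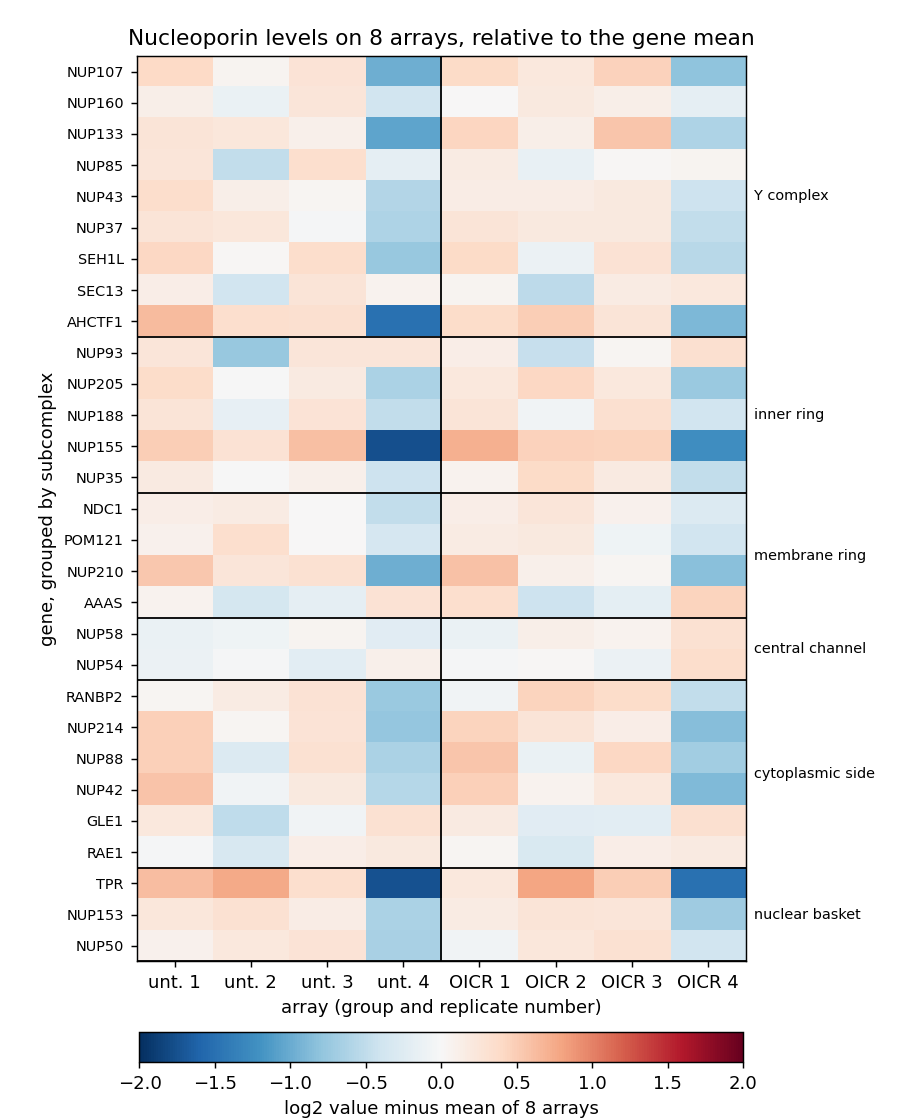
Log2 value of each of the 29 genes (rows, grouped by subcomplex) on each of the 8 arrays (columns), minus that gene's mean over the arrays, from blue (lower) to red (higher). The arrays numbered 4 in both groups are the bluest columns, with 21 genes below all other arrays. NUP93, NUP54, GLE1 and RAE1 lie above all other arrays there, and AAAS is highest at number 4 within each group.

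The comparison of OICR-9429 with untreated cells asks whether blocking the WDR5 pocket before 3D culture alters nucleoporin transcripts. No nucleoporin passed the test. With limma, 0 of 29 had an adjusted p under 0.05, as did 0% of all probe sets, and the adjusted p of every member was 1. At an unadjusted p under 0.05 there were 0 of 29, where 0.49% of all probe sets had one. Fitted with the replicate number as a block, 0 of 29 again passed either limit (smallest adjusted p 0.841, limma), where 5.55% of all probe sets had an unadjusted p under 0.05. The groups' values overlapped for 29 of 29 genes, and failed to overlap in 0.737% of all probe sets.

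The 5 genes nearest the threshold in the fit without the block had small differences, given here with the SE of that fit. With the block the nearest were NUP133, NUP58, NUP155, NUP107 and NUP54, with limma unadjusted p of 0.0899 to 0.239. NUP155 then differed by 0.18 ± 0.12 and NUP107 by 0.12 ± 0.096 (SE), and the SE of NUP133 was 0.12. NUP58, a phenylalanine-glycine nucleoporin of the central channel, measured 9.70, 9.74, 9.88 and 9.60 in untreated cells numbered 1 to 4 and 9.70, 9.95, 9.90 and 10.13 in treated cells. Number 4 alone gave most of its mean difference of 0.19 ± 0.15 (SE, n = 4 each), with 0.53 there against 0.00 to 0.21 in the other pairs. NUP54, its channel partner, measured 9.36, 9.45, 9.26 and 9.57 in untreated and 9.45, 9.50, 9.35 and 9.83 in treated cells. Its difference was 0.12 ± 0.16 (SE, n = 4 each), above 0 in 4 of 4 pairs, and the groups overlapped. NUP133, a stem subunit of the Y complex, measured 7.05, 7.03, 6.90 and 5.74 in untreated and 7.23, 6.91, 7.35 and 6.18 in treated cells. That gave a difference of 0.24 ± 0.35 (SE, n = 4 each), the largest of the 29, with number 2 at -0.12. NDC1, a membrane anchor of the pore, measured 10.37, 10.41, 10.25 and 9.75 in untreated and 10.38, 10.49, 10.33 and 9.97 in treated cells. It differed by 0.10 ± 0.20 (SE, n = 4 each), with pairs of 0.01 to 0.22. RANBP2, the giant filament protein that binds Ran, measured 8.29, 8.41, 8.54 and 7.50 in untreated and 8.17, 8.69, 8.62 and 7.75 in treated cells. Its groups overlapped, and it differed by 0.12 ± 0.29 (SE, n = 4 each), with number 1 at -0.12.

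The subcomplexes had like differences. Of the 29 genes, 22 were above 0 and 7 below, with a median of 0.05 and a range of -0.06 to 0.24, beside a median of 0.01 and 51.7% above 0 over all probe sets. The medians were 0.07 for the Y complex, 0.07 for the inner ring, 0.02 for the membrane ring, 0.16 for the 2 central channel genes, 0.02 for the cytoplasmic side and 0.01 for the basket. Taken as scaffold and periphery, 12 of 14 scaffold genes and 6 of 9 peripheral genes lay above 0. By pair the median of the 29 was -0.03, 0.10, 0.02 and 0.16 for numbers 1 to 4, with 10, 21, 16 and 21 genes above 0. In 3 of 29 genes (NUP54, NDC1 and NUP188, all above 0) the 4 pairs went the same way, beside 12.6% of all probe sets. Leaving out single arrays moved the median of the 29 between -0.12 (without untreated replicate 4) and 0.21 (without OICR-9429 replicate 4). Without both arrays of number 4, 0 of 29 passed with or without the block.

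**Figure D2:**
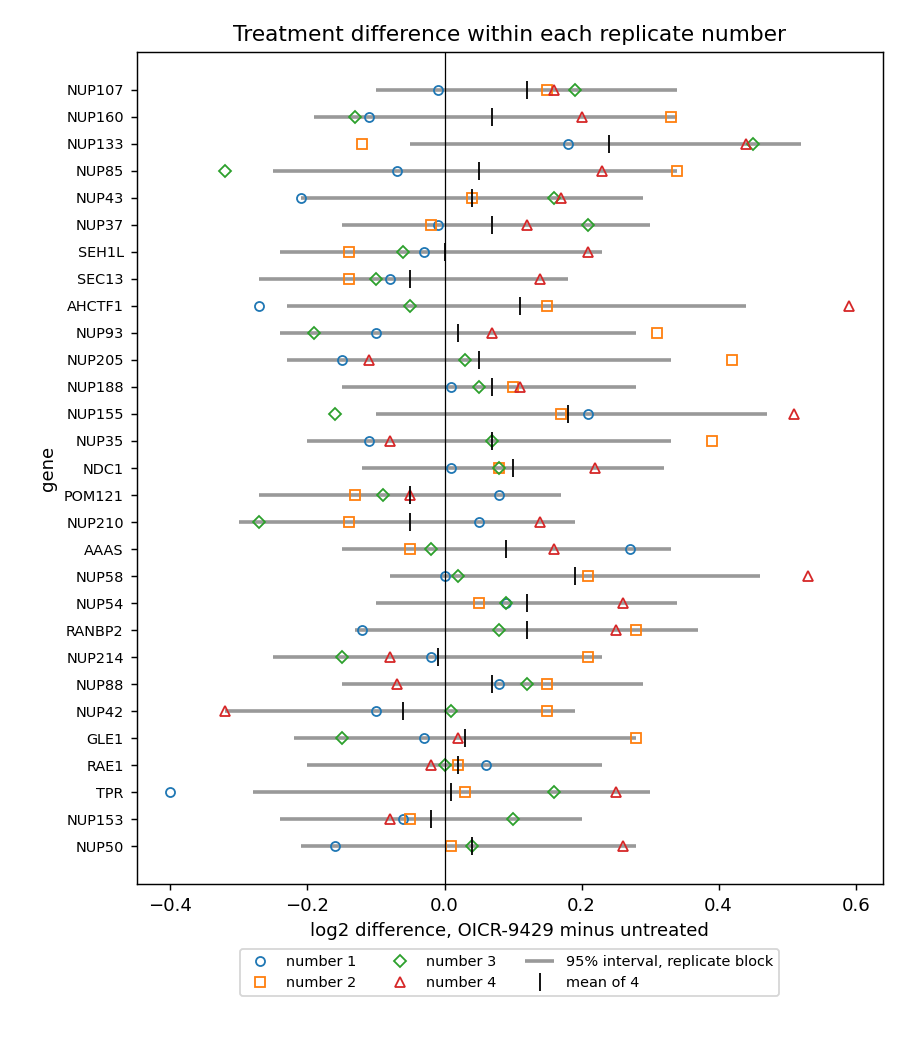
Difference of OICR-9429 minus untreated (log2, x axis) for each gene, with open symbols for the 4 replicate numbers, a black tick for their mean and a grey bar for the 95% interval from limma with the replicate block. All 29 bars cross 0 and lie between -0.32 and 0.52.

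The intervals say which changes remain possible. Without the block the 95% interval, not adjusted for the number of genes, lay within 2-fold for 25 of 29 genes and within 1.5-fold for 11. Of all 21448 probe sets it did so for 19191 and 9150. With the block it lay within 1.5-fold for 29 of 29, beside 19448 of all 21448 probe sets. The lowest bound was -0.32 (NUP42, a filament protein of messenger RNA export) and the highest 0.52 (NUP133). The median SE of the 29 fell from 0.25 to 0.11 with the block, and that of all probe sets from 0.22 to 0.11.

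Nucleoporin levels differed far more between replicate numbers than between treatments. With limma's F test in a model with number and treatment, 25 of 29 genes (86.2%) differed between numbers at an adjusted p under 0.05, beside 50.3% of all probe sets and 74.3% of those in the top band of level. The 4 that did not pass were NUP160, NUP85, NUP58 and NUP54. Without number 4, 3 of 29 passed (SEC13, NUP93 and NUP88), beside 13.9% of all probe sets. The test has 2 arrays per number, so its SE rests on how the treatment difference varies between numbers, and not on separate cultures. Each number was also set against the mean of the other numbers. Those contrasts share arrays, so a low number 4 raises the other numbers' values.

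At number 4 most nucleoporins were lower. Of the 29, 21 (72.4%) were lower than the mean of numbers 1 to 3 and 4 (13.8%) higher, beside 25.5% lower and 26.3% higher among all probe sets. The median difference was -0.69 for the nucleoporins and 0.08 for all probe sets. Of 26 in the top band of level, 18 (69.2%) were lower, beside 46.2% of the 5360 probe sets there, whose median was -0.25. Of those 26 genes 4 (15.4%) were higher, beside 22.2% of the probe sets there. The lower genes were 7 of 9 in the Y complex, 4 of 5 in the inner ring, 3 of 4 in the membrane ring, 4 of 6 on the cytoplasmic side and 3 of 3 in the basket, and 0 of 2 in the central channel. In 21 of 29 both arrays of number 4 lay below the other 6, beside 24.2% of all probe sets. The deficit of a gene in the untreated array and in the treated array went together across the 29 genes (Pearson's r = 0.952 over genes, which share these arrays).

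Scaling of the arrays shifts this count without turning a call. After quantile normalization 18 were lower, beside 22.7% of all probe sets, and 6 higher, beside 5996 of 21448. After cyclic loess, which removes trends with level, 17 were lower, beside 24.6%, and 6 higher, beside 4967 of 21448. The median of the 29 was then -0.50 and -0.46, and that of the top-band probe sets -0.06 and 0.00. The calls lost were NUP160, NUP35 and POM121 under both and NDC1 under cyclic loess, and SEC13 and RAE1 joined the higher genes under both. NUP85, which was not called, went from -0.09 to 0.18 and 0.16, and the other genes kept their sign. Both choices were made after seeing the data. Other markers moved with number 4: 6 of 8 myeloid markers were higher and 0 lower, with array means of 5.83 and 5.88 against 5.19 to 5.41. Of 4 NK markers 2 were higher and 0 lower, with array means of 5.58 and 5.82 against 5.04 to 5.30. Of 4 erythroid and of 6 fibroblast and epithelial markers, 2 each were higher and 1 each lower, and of 5 B-cell markers 1 was higher and 1 lower. Of T-lineage markers 6 were higher and 2 lower, with array means of 9.74 and 9.78 against 9.29 to 9.57. Of all probe sets 26.3% were higher at number 4. From the dimmest band of mean level to the top band, the median difference there was 0.14, 0.23, -0.02 and -0.25. Only 2 of the 8 myeloid and 1 of the 4 NK markers lay above the median level. The part of level in the marker differences was not tested. The markers' part in the nucleoporin differences was not tested. Fewer transcripts per cell, a different mix of cells and technical differences between arrays cannot be told apart in such bulk RNA.

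**Figure D3:**
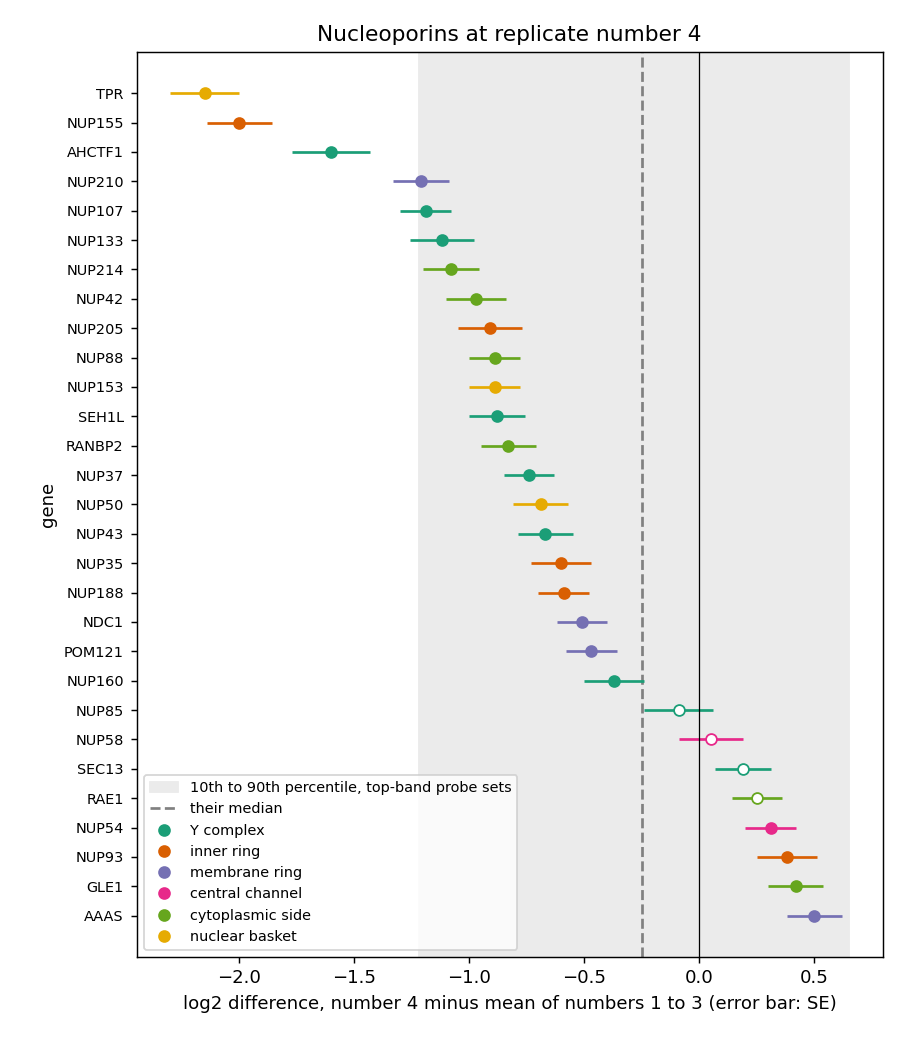
Difference of number 4 minus the mean of numbers 1 to 3 (log2, x axis, error bars SE from limma) for each gene, coloured by subcomplex, with filled points for an adjusted p under 0.05. The grey band holds the 10th to 90th percentile of top-band probe sets (-1.22 to 0.65) and the dashed line their median (-0.25), and TPR, NUP155 and AHCTF1 lie left of the band.

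In the scaffold, Y complex genes fell unequally at number 4. AHCTF1 encodes ELYS, which seeds pore assembly on chromatin after mitosis. It measured 9.60, 9.30, 9.28 and 7.47 in untreated cells numbered 1 to 4 and 9.33, 9.45, 9.23 and 8.06 in treated cells. Both arrays of number 4 lay below the other 6. Number 4 differed from the mean of numbers 1 to 3 by -1.60 ± 0.17 (SE), with a limma adjusted p of 0.00017. NUP107, which sits in the stem of the Y, measured 9.10, 8.76, 8.97 and 7.73 in untreated and 9.09, 8.91, 9.16 and 7.89 in treated cells. The arrays of number 4 were again the lowest. The difference from the mean of the other numbers was -1.19 ± 0.11 (SE), with a limma adjusted p of 0.000104. NUP133, whose values stand with the treatment comparison, was lower by -1.12 ± 0.14 (SE). SEH1L (-0.88), NUP37 (-0.74), NUP43 (-0.67) and NUP160 (-0.37) were also lower, the last by limma with an adjusted p of 0.0461. NUP85 stood at -0.09 and SEC13 at 0.19, and neither passed the test. SEC13, which also builds the outer coat of secretory vesicles, measured 10.46, 9.94, 10.58 and 10.39 in untreated and 10.38, 9.80, 10.48 and 10.53 in treated cells. Its lowest arrays in both groups were those of number 2.

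The inner ring held differences in both directions. NUP155, a large scaffold subunit that contacts the membrane, measured 9.45, 9.24, 9.56 and 7.20 in untreated and 9.66, 9.41, 9.40 and 7.71 in treated cells. Both arrays of number 4 lay below the other 6 arrays. Number 4 differed from the mean of numbers 1 to 3 by -2.0 ± 0.14 (SE), with a limma adjusted p of 4.45e-05. NUP93, the linker that holds the inner ring together, measured 9.70, 8.70, 9.70 and 9.71 in untreated and 9.60, 9.01, 9.51 and 9.78 in treated cells. Its number 4 arrays were the highest only narrowly, at 9.71 and 9.78 against at most 9.70 on the other 6 arrays. Its lowest arrays were those of number 2. Number 4 stood 0.38 ± 0.13 (SE) above the mean of numbers 1 to 3, with a limma adjusted p of 0.0425. That call was lost in 7 of 11 fits without an array or a number, the fit without number 2 among them. NUP205, a large ring subunit, measured 8.0, 7.63, 7.81 and 7.01 in untreated and 7.85, 8.05, 7.84 and 6.90 in treated cells. It was lower at number 4 by -0.91 ± 0.14 (SE), with both arrays below the other 6. NUP188 (-0.59) and NUP35 (-0.60) were lower too.

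**Figure D4:**
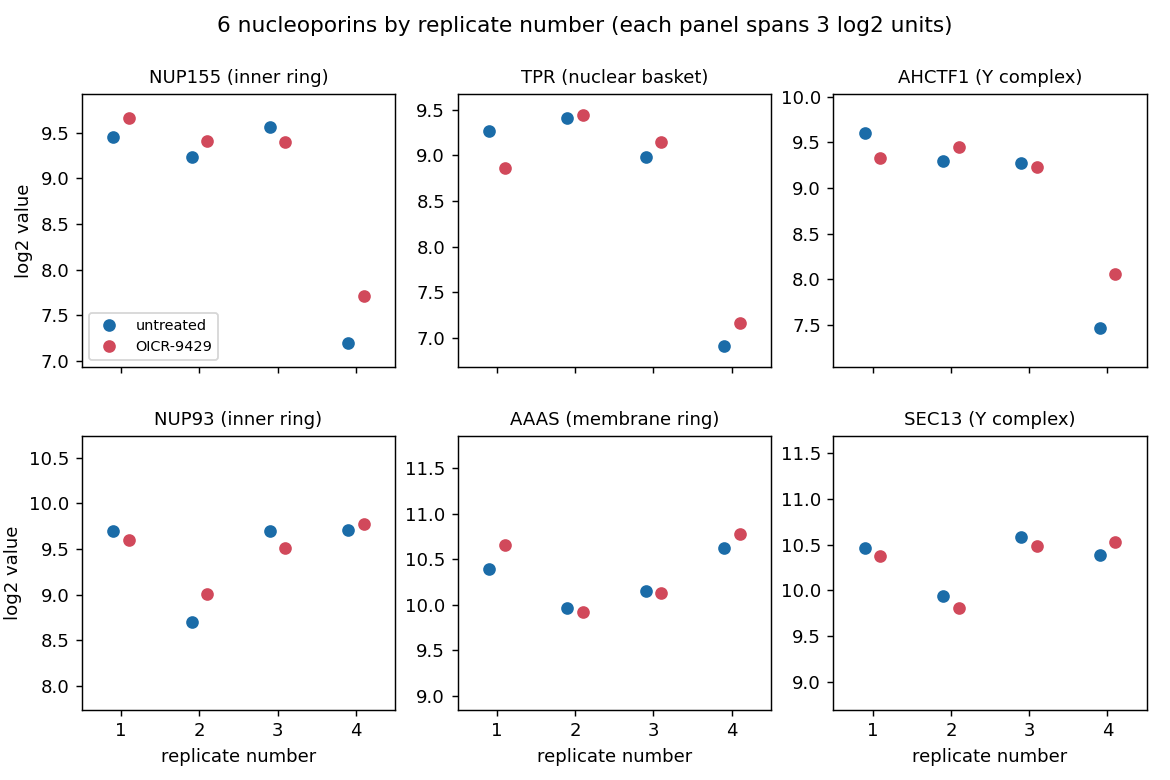
Log2 values of 6 nucleoporins on the 8 arrays, by replicate number (x axis) and group (colour), with 3 log2 units on each y axis. NUP155, TPR and AHCTF1 drop at number 4 in both groups, NUP93 and SEC13 are lowest at number 2, and AAAS is highest at number 4 within each group.

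In the membrane ring NUP210, a membrane glycoprotein with most of its mass in the envelope lumen, measured 9.60, 9.30, 9.37 and 8.08 in untreated and 9.65, 9.16, 9.10 and 8.22 in treated cells. Its arrays of number 4 were the lowest in each group. It was lower by -1.21 ± 0.12 (SE), with a limma adjusted p of 0.000156. NDC1 (-0.51) and POM121 (-0.47), which anchor the pore, were lower as well, and POM121C, the copy of POM121, stood at -0.54. AAAS, which encodes ALADIN, the NDC1-bound protein mutated in triple A syndrome, measured 10.39, 9.97, 10.15 and 10.62 in untreated and 10.66, 9.92, 10.13 and 10.78 in treated cells. It was higher at number 4 by 0.50 ± 0.12 (SE), with a limma adjusted p of 0.00873, although the treated array of number 1 lay above the untreated one of number 4. In the central channel NUP54 was higher by 0.31 ± 0.11 (SE), with a limma adjusted p of 0.0488, and NUP58 stood at 0.05 ± 0.14 (SE). The call of NUP54 was lost in 11 of 11 fits without an array or a number, and with number alone in the model. Since 2 of 4 channel genes were measured, nothing is said of the channel as a whole.

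On the cytoplasmic side NUP214, which with NUP88 forms the platform for messenger RNA export, measured 9.32, 8.89, 9.13 and 8.08 in untreated and 9.30, 9.10, 8.98 and 8.0 in treated cells. It was lower at number 4 by -1.08 ± 0.12 (SE). NUP88 measured 9.10, 8.35, 8.93 and 8.0 in untreated and 9.18, 8.50, 9.05 and 7.93 in treated cells, lower at number 4 by -0.89 ± 0.11 (SE). Its second lowest arrays were those of number 2, which made it 1 of the 3 genes that differed between numbers when number 4 was left out. NUP42 (-0.97) and RANBP2 (-0.83) were lower too, and the 6 RGPD copies of RANBP2 stood between -1.49 and -0.84. GLE1, the activator of the export helicase DDX19B, went the other way, at 8.52, 7.81, 8.25 and 8.62 in untreated and 8.49, 8.09, 8.10 and 8.64 in treated cells. It was higher at number 4 by 0.42 ± 0.12 (SE), with a limma adjusted p of 0.0217. That call was lost in 5 of 11 fits without an array or a number. RAE1, an export factor that also binds NUP98, stood at 0.25 ± 0.11 (SE) and did not pass (limma, adjusted p = 0.0858).

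The nuclear basket fell throughout at number 4. TPR, the coiled-coil protein that forms the basket's filaments, measured 9.26, 9.41, 8.98 and 6.91 in untreated and 8.86, 9.44, 9.14 and 7.16 in treated cells. Number 4 was lower by -2.15 ± 0.15 (SE), with a limma adjusted p of 4.04e-05, the largest difference among the 29. NUP153, which tethers the basket to the nuclear ring, measured 10.31, 10.39, 10.23 and 9.46 in untreated and 10.25, 10.34, 10.33 and 9.38 in treated cells. That is a difference of -0.89 ± 0.11 (SE), with the other 6 arrays within 10.23 to 10.39. NUP50, an importin cofactor of the basket, was lower by -0.69 ± 0.12 (SE).

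The higher genes had small differences at number 4 (0.31 to 0.50), and their calls were lost in more fits than those of most lower genes. Without any single array, or any of numbers 1 to 3, 18 to 21 genes were lower at number 4, beside 21.5% to 25.7% of all probe sets. Higher there were 3992 to 5533 of the 21448 probe sets. In these 11 fits NUP160 lost its call in 9, and NUP35, NDC1 and POM121 lost theirs in 1 each. The count of higher genes fell to 0 without OICR-9429 replicate 4, and to 1 (AAAS) without untreated replicate 4, OICR-9429 replicate 3 or replicate 2. It was 2 (AAAS and GLE1) without untreated replicate 1, untreated replicate 2 or OICR-9429 replicate 1, and 2 (NUP93 and AAAS) without replicate 3. Without replicate 1, untreated replicate 3 or OICR-9429 replicate 2 it was 3 (NUP93, AAAS and GLE1).

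At number 2 nucleoporins split. Lower there were SEC13 (-0.60), NUP93 (-0.81), AAAS (-0.51), GLE1 (-0.49) and RAE1 (-0.42), 5 of 29, beside 11.6% of all probe sets. Higher were AHCTF1, NUP155, POM121, RANBP2, TPR and NUP153, 6 of 29 beside 15.4%, with TPR at 1.04 ± 0.15 (SE). Without number 4 the higher count was 0 and the lower genes were SEC13 (-0.60), NUP93 (-0.77) and NUP88 (-0.64), with limma adjusted p of 0.0158, 0.0138 and 0.0134. Of all 21448 probe sets 1544 were then higher at number 2 and 1686 lower. At number 1, 9 of 29 were higher (NUP107, SEH1L, AHCTF1, NUP155, NUP210, NUP214, NUP88, NUP42 and TPR), beside 10.6% of all probe sets, and 0 lower, beside 6.14%. Without number 4 that count was 0, and it was also 0 without either array of number 1. Of all probe sets 1255 were higher at number 1 when number 4 was left out. At number 3, 0 of 29 were higher (beside 1.18%) or lower (beside 0.2%). The 9 and 6 higher genes at numbers 1 and 2 were thus called only with number 4 in their reference, whereas SEC13 and NUP93 were lower at number 2 with and without it.

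Genes of nuclear transport were read beside the pore. Of 42 listed transport receptors, Ran cycle and messenger RNA export genes 37 were measured. With OICR-9429, 0 of 37 passed (limma, smallest adjusted p 1, and 0.841 with the block), with 0 at an unadjusted p under 0.05 in either fit. Between numbers 26 of 37 (70.3%) differed, beside 50.3% of all probe sets and 74.3% of the top band, where 31 of the 37 lay. At number 4, 20 (54.1%) were lower, beside 25.5% of all and 46.2% of the top band, with a median of -0.41. Only 2 of 37 were higher, beside 26.3% of all and 22.2% of the top band. The shares that differed between numbers and that were lower at number 4 are thus near those of bright probe sets, and the higher share is below theirs. The lower ones were 5 of 9 importin beta genes, 3 of 6 importin alpha, 5 of 7 exportins, 1 of 5 Ran cycle and 6 of 10 messenger RNA export genes. KPNB1, which encodes importin beta, was lower by -1.63 ± 0.11 (SE). THOC2, the largest THO export subunit, stood at -2.02 ± 0.11 and THOC1 at -1.30 ± 0.13 (SE). XPO4 and XPOT, exporters of protein and transfer RNA, stood at -1.36 ± 0.14 and -1.33 ± 0.13 (SE), and KPNA3 at -0.91. XPO1, the main exporter of proteins with leucine-rich signals, was higher by 0.36 ± 0.13 and the importin KPNA2 by 0.32 ± 0.11 (SE). Their limma adjusted p of 0.0453 and 0.0473 lay just under the threshold. Neither passed limma's F test between numbers (adjusted p 0.104 and 0.0838). RANBP1, which helps release exported cargo, was lower at number 2 (-0.91) as well as at number 4 (-0.66), NUTF2 (the Ran importer) was lower at number 2 (-0.51), and TNPO2 was too (-0.79). KPNA5 differed between numbers chiefly at number 1, where it stood at -0.60.

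**Figure D5:**
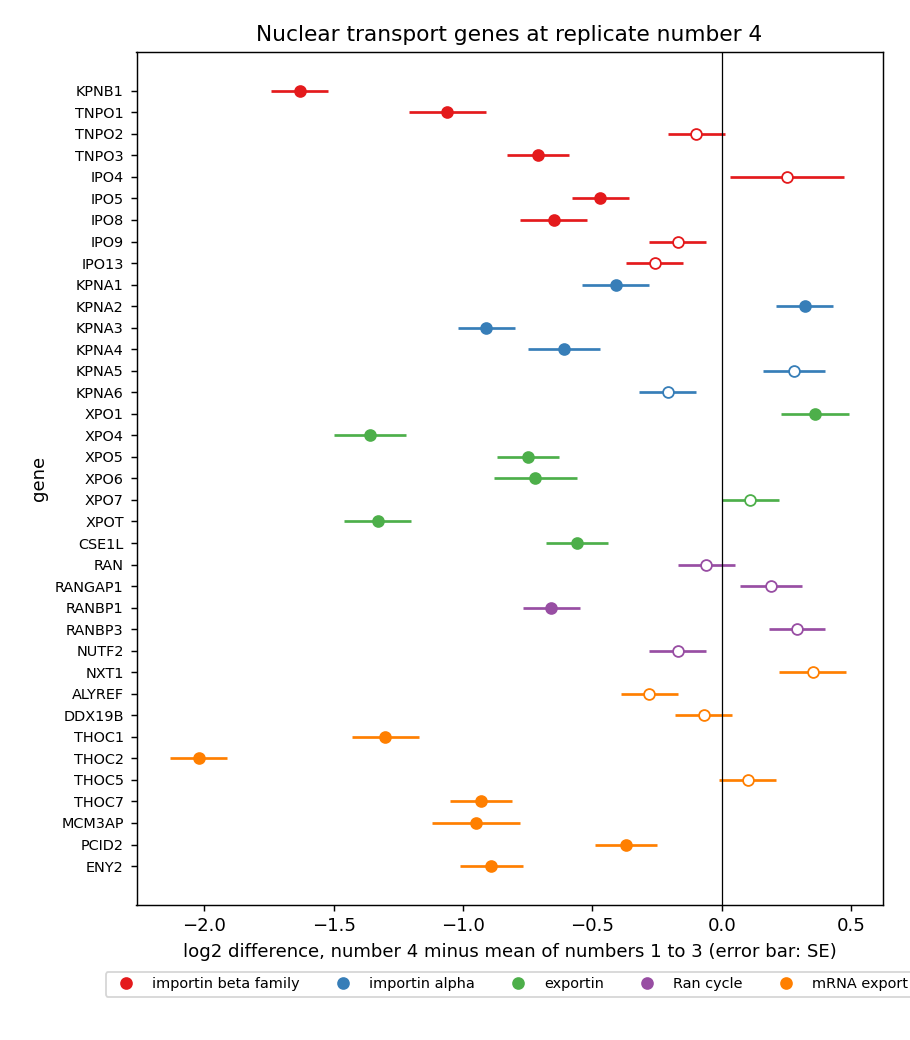
Difference of number 4 minus the mean of numbers 1 to 3 (log2, x axis, error bars SE from limma) for 37 nuclear transport genes, coloured by group, with filled points for an adjusted p under 0.05. Of these, 20 filled points lie left of 0 and 2 (KPNA2 and XPO1) right of it.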

How the data were processed

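RNA from 8 CCRF-CEM samples was hybridised to Affymetrix arrays after labelling with the GeneChip WT PLUS kit, per the labels. The authors deposited log2 expression values, 1 per probe set and array. RMA and Transcriptome Analysis Console are named, without versions, in the submitters' processing notes. As to a genome build, it is not given in the sources consulted. Scanner files were not used here, so background signal and scan batch were not examined, and the number of arrays limits the precision. No pair of arrays held identical values. Gene names came from GEO's platform annotation, checked by Entrez ID against a RefSeq table of GRCh38.p14: 17709 had 1 symbol, 0 several and 3739 none.

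Groups were compared with limma 3.58.1 (R 4.3.3, lmFit and eBayes, two-sided) over all 21448 probe sets, with Benjamini-Hochberg adjustment and a threshold of 0.05. The treatment comparison had no covariate, and the same fit with the replicate number as a block was an alternative. Numbers were compared in a model with number and treatment. Same-numbered arrays deviated together from their group means (correlations of 0.696, 0.748, 0.566 and 0.865 across probe sets), so the numbers in the titles pair the samples. Members, lists and tests were chosen with earlier results of these data known. All members are named. Full values are given for the 5 members with the smallest unadjusted p for treatment in the fit without the block. They are also given for the 2 per subcomplex with the smallest F-test p, and for members past the threshold and higher at number 4. Members past the threshold at numbers 1 to 3 are also named, and of the transport list the 2 per group with the smallest F-test p. SEC13 was given in full after its values were seen, and KPNA2 and XPO1 of the transport list were named likewise. Alternatives were another scaling, a filter on dim probe sets, trend and robust variance, and leaving out each array or number. Bands of protein length were planned but not run, since protein lengths were not used here.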

Additional observations from a re-analysis of the deposited data

Results flagged for a closer look

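The outlying values were sought in each of the 29 genes within each group of 4 arrays: a value was taken where its gap to the nearest other array exceeded Dixon's 95% critical share of the group's range. Of 58 groups, 9 (15.5%) held such an array, beside 7.95% of the 42896 groups over all probe sets; chance gives about 1 in 20, and the genes share the same 8 arrays. Of the 9, 8 were arrays of number 4, all low. Among untreated arrays, replicate 4 stood at 5.74 for NUP133 (the others 6.90 to 7.05), 7.47 for AHCTF1 (9.28 to 9.60) and 7.20 for NUP155 (9.24 to 9.56). Among OICR-9429 arrays, replicate 4 stood at 9.01 for NUP43 (9.57 to 9.62), 7.92 for NUP37 (8.61 to 8.67), 8.06 for AHCTF1 (9.23 to 9.45), 7.71 for NUP155 (9.40 to 9.66) and 9.38 for NUP153 (10.25 to 10.34). The ninth was untreated replicate 2 of NUP93, at 8.70 against 9.70 to 9.71. AHCTF1 and NUP155 were outlying in both groups.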

How the results depend on the processing

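In the treatment comparison, 0 members and 0 probe sets passed in every setting run, the replicate block among them (limma; 0 members at an unadjusted p under 0.05 with or without it), and the block changed no call of a member. Without single arrays or numbers, the median of the members ran from -0.12 to 0.21. The medians ran from -0.12 to 0.19 (Y complex), -0.09 to 0.24 (inner ring), -0.11 to 0.14 (membrane ring), 0.07 to 0.21 (central channel), -0.12 to 0.25 (cytoplasmic side) and -0.23 to 0.21 (basket). An array left out unbalances the numbers by construction. Without single arrays or numbers, the members past the F test between numbers ran from 3 to 25 and the probe sets from 2979 to 10394, the lowest both without number 4. With all 8 arrays, the members past it ran from 22 (quantile normalization and cyclic loess) to 28 (trend and robust variance). Of all probe sets 48.5%, 46.2% and 54.6% passed in those settings, in that order. Without single arrays or numbers, members higher ran from 0 to 13 (number 1), 0 to 10 (number 2), 0 to 6 (number 3) and 0 to 3 (number 4), and those lower at number 2 from 1 to 5. The number 4 median ran from -0.77 to -0.65. The medians there ran from -0.79 to -0.71 (Y complex), -0.72 to -0.58 (inner ring), -0.55 to -0.44 (membrane ring), 0.02 to 0.34 (central channel), -0.94 to -0.79 (cytoplasmic side), -0.93 to -0.85 (basket) and -0.27 to -0.23 (top-band probe sets). Members higher at number 2 were 2 with arrays centred on the median, 1 after quantile normalization and 3 after cyclic loess. Those at number 1 were 14 without dim probe sets, 15 with trend and robust variance, and 5 after quantile normalization or cyclic loess. At number 3 they were 9 without dim probe sets or with trend and robust variance. Counts over all probe sets were not made for numbers 1 to 3 in these settings, nor in the fits without an array or number, except that without number 4. These member counts therefore cannot be told from a general rise or fall in calls. After quantile normalization the number 4 medians were -0.50 (members), -0.50 (Y complex), -0.34 (inner ring), -0.33 (membrane ring), -0.61 (cytoplasmic side), -0.69 (basket) and -0.06 (top-band probe sets). After cyclic loess they were -0.46, -0.51, -0.33, -0.24, -0.62, -0.63 and 0.00 in that order, and 0.44 for the central channel. The cause of these shifts was not tested. Averaging several probe sets per member had nothing to average, since each had 1.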
